A study of Homo sapiens with 19 samples.

Results

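Lumican (LUM) and 6 other genes of the extracellular matrix that are not collagens were followed in PMA-differentiated THP-1 cells, a human monocytic leukaemia line, with and without vitamin C (vit C). The other 6 were decorin (DCN), biglycan (BGN), microfibril-associated protein 5 (MFAP5), the procollagen protease ADAMTS2, fibronectin (FN1) and SPARC. The 7 genes were selected on their levels in these same arrays, so their levels and their differences between groups are given as a description and carry no test. All 7 gene names were present on the array, with 11 of its 50238 probes (3 each for FN1 and ADAMTS2 and 1 for each of the others), among 31033 gene names in all.

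In every group the cells had first been treated with 30 nM of the phorbol ester PMA, which turns the monocytic cells into adherent macrophage-like cells, and had then been rested. The untreated (UT) flasks received nothing further and the treated flasks received 0.1 mM vit C, and RNA was taken 8, 24, 48 and 96 h later. The 8 groups held 2, 3, 2 and 3 UT arrays and 3, 2, 2 and 2 vit C arrays at the 4 time points, 19 arrays in all, each from its own flask of the 1 cell line. Every value below is the log2 of the processed spot signal minus the 75th percentile of its own array, so that 0 marks a probe as bright as the probe at that percentile. A signal that the scanner software did not call well above background is said to be so, because it gives only an upper bound.

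The extracellular matrix is a mesh of fibrillar collagens and of the glycoproteins and proteoglycans that organise them. Lumican, decorin and biglycan are small leucine-rich proteoglycans (SLRPs), which bind collagen fibrils and regulate their diameter and spacing. MFAP5 is a component of the microfibrils that surround elastic fibres, ADAMTS2 removes the amino-terminal propeptide of fibrillar procollagens, fibronectin is a cell-adhesive glycoprotein that macrophages make in quantity, and SPARC is a matricellular glycoprotein that binds collagen and calcium. Vit C is the cofactor of the prolyl and lysyl hydroxylases that modify collagen. LUM, DCN and SPARC are best known from fibroblasts and other mesenchymal cells.

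LUM, DCN, SPARC and MFAP5 were higher in vit C-treated than in UT cells at 48 and at 96 h, with no overlap between the arrays of the groups, although MFAP5 at 96 h turned to -0.10 under another background correction (normexp). LUM appeared at 48 h in treated cells and on no UT array. DCN, SPARC and FN1 rose over time in UT cells too, FN1 to overlapping ranges with and without vit C. BGN lay between -6.37 and -3.81 on all arrays, and ADAMTS2 differed between vit C-treated and UT cells of the same time point by at most 0.98 log2 units on its brightest probe. By the count of genes whose brightest probe had a mean at least 1 log2 unit higher with vit C and no overlap, the 7 genes gave 0 at 8 h, 2 at 24 h (MFAP5 and SPARC), 4 at 48 h and 4 at 96 h (LUM, MFAP5, SPARC and DCN at both). Under normexp the counts were 0 at 24 h, 2 at 48 h (MFAP5 and DCN) and 2 at 96 h (SPARC and DCN), and with signals floored at 20 units 0 at 24 h. Of all genes with a brightest probe well above background in a whole group, 4.3%, 3.7%, 6.18% and 4.08% did so at 8, 24, 48 and 96 h. Nothing is read from the difference, since these contrasts chose the genes.

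**Figure D1:**
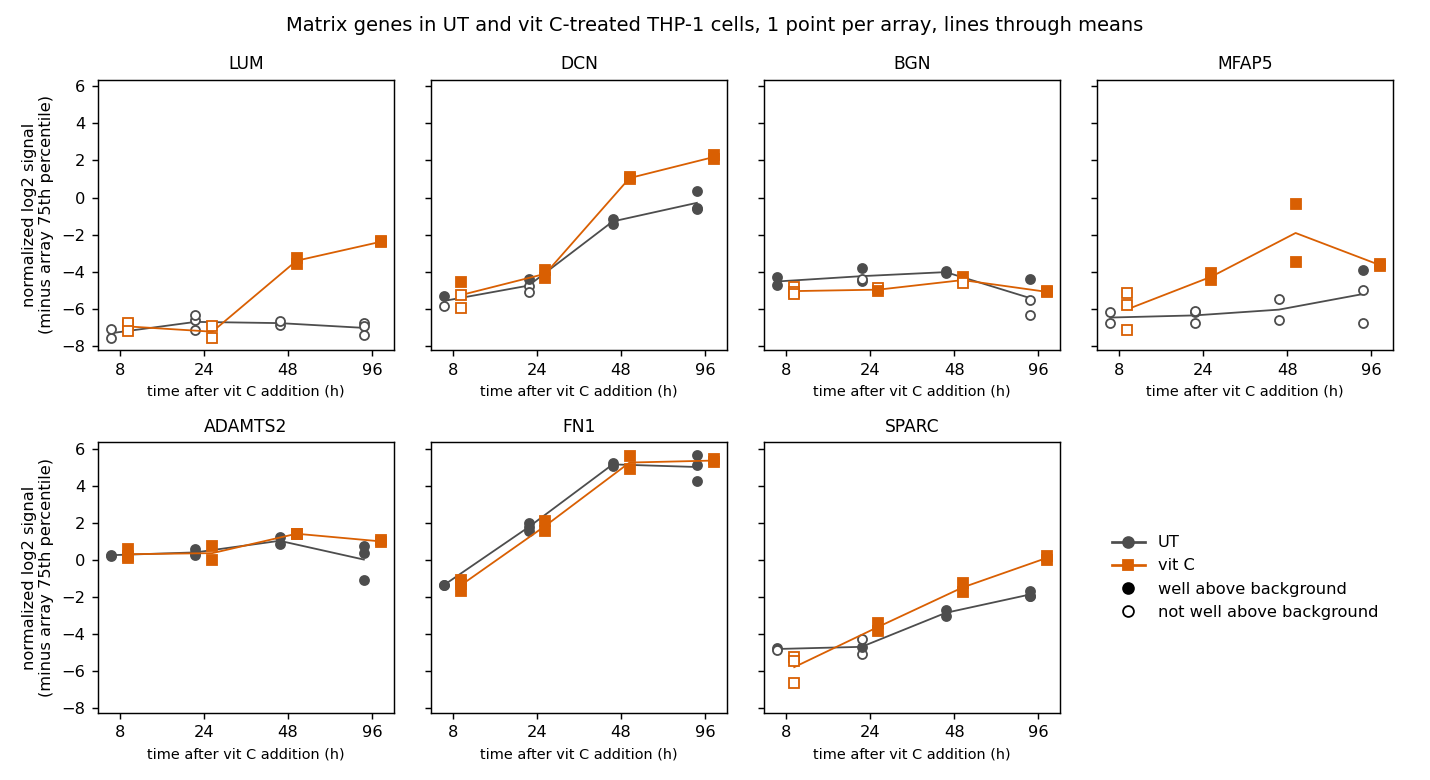
Normalized log2 signal (y axis) of the brightest probe of each gene against time after vit C addition in h (x axis), 1 point per array, with lines through the group means. UT arrays are circles and vit C arrays squares, and open symbols were not well above background. LUM is filled only in the vit C arrays of 48 and 96 h, from -3.58 to -2.37, while every UT array lies between -7.57 and -6.37.

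Lumican rests on a single 60-base probe made for transcript NM_002345, and its first 30 bases are shown because the whole LUM result depends on them.
LUM probe: tttttatttctactgtcaaatgatgtgcaa
On the UT arrays the probe gave -7.57 and -7.09 at 8 h, -6.63, -7.16 and -6.37 at 24 h, -6.91 and -6.67 at 48 h, and -6.78, -6.94 and -7.42 at 96 h. None of these 10 signals was well above background, and as processed signals they lay between 2.81 and 3.86 units. With vit C the values were -6.90, -6.76 and -7.24 at 8 h and -6.93 and -7.58 at 24 h, again not above background. They were -3.25 and -3.58 at 48 h and -2.37 and -2.41 at 96 h, with processed signals of 38.8, 29.3, 152 and 170 units, all 4 well above background. The treated arrays of 48 and 96 h thus stood apart from the other 15, and those of 96 h stood above those of 48 h by 1.02. The other 6 groups overlapped with their neighbours in the order of the means.

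Because the UT signals were at background, the LUM difference is a lower bound. With the UT arrays set at the lowest signal that counted as well above background on each, LUM was at least 2.28-fold higher with vit C at 48 h and at least 6.17-fold higher at 96 h. The measured means differed by 3.37 and 4.65 log2 units. With all signals floored at 20 units, the differences were 1.02 and 2.05 log2 units and thus below these bounds, and under normexp they were 0.55 and 0.99. In bulk RNA, more cells with LUM and more LUM RNA per cell cannot be told apart. No slide held UT and vit C arrays of the same time point. At 8, 24 and 48 h all UT arrays were on 1 slide and the vit C arrays on others. Slide and vit C can be parted there only through the UT arrays of 96 h, which lay on both sides. The 96 h vit C arrays were alone on a slide that was scanned on another day, so that slide, scan day and vit C cannot be told apart at 96 h. On the slide that did hold both treatments, the vit C array of 48 h gave -3.25 for LUM and the UT arrays of 96 h gave -6.94 and -7.42. LUM in vit C cells was at least 3.24-fold higher at 48 h than at 24 h, where it was not above background.

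Decorin is the SLRP whose gene lies next to LUM on the chromosome. Its single probe gave -5.30 and -5.87 in UT cells at 8 h, -4.76, -4.38 and -5.13 at 24 h, -1.44 and -1.15 at 48 h, and -0.64, -0.58 and 0.35 at 96 h. With vit C it gave -5.95, -5.27 and -4.59 at 8 h, -4.34 and -3.90 at 24 h, 1.11 and 0.99 at 48 h, and 2.28 and 2.09 at 96 h. DCN therefore rose in both arms, and each group of 48 and 96 h stood clear of the next in the order vit C 96 h, vit C 48 h, UT 96 h, UT 48 h. The 8 and 24 h groups lay below them, where 1 of 2 UT arrays at 8 h, 1 of 3 UT arrays at 24 h and 1 of 3 vit C arrays at 8 h, but both vit C arrays at 24 h, were well above background. The UT mean rose by 5.30 log2 units from 8 to 96 h, or by 2.81 under normexp and 4.15 with a floor of 20 units. The vit C mean was 2.34 log2 units higher than UT at 48 h (5.07-fold) and 2.48 higher at 96 h (5.56-fold), against within-group SDs of 0.08 to 0.55 (n = 2 or 3). On the slide that held both treatments, DCN was 1.11 in the vit C array of 48 h and -0.58 and 0.35 in the UT arrays of 96 h.

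Keratocan (KERA) and epiphycan (EPYC), SLRP genes that lie beyond LUM in the same cluster, did not appear with LUM and DCN. KERA rose above background on 0 of 19 arrays and EPYC on 1, a UT array of 24 h. Their mean values in vit C cells at 96 h were -7.96 and -7.49.

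Biglycan, the SLRP most similar to decorin in sequence, showed no such rise. Its probe lay near background throughout, with UT values of -4.75 and -4.32 at 8 h, -3.81, -4.52 and -4.42 at 24 h, -4.07 and -3.99 at 48 h, and -5.51, -4.41 and -6.37 at 96 h. The vit C values were -4.83, -5.12 and -5.21, then -4.90 and -5.06, then -4.32 and -4.60, and at 96 h -5.07 and -5.12. The vit C arrays were lower than the UT arrays without overlap at 8, 24 and 48 h, by 0.52, 0.73 and 0.43 log2 units between the means, and the groups overlapped at 96 h, where the difference was 0.33, or -0.13 without UT replicate 3. Under normexp the differences were 0.01, -0.46, -0.16 and -0.55 at 8, 24, 48 and 96 h, and with a floor of 20 units they were -0.06, -0.22, -0.35 and -0.01. Only 7 of 10 UT and 4 of 9 vit C signals were well above background, so these values lie at the limit of what the probe measured.

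MFAP5 was detected with vit C from 24 h on. In UT cells the values were -6.77 and -6.20 at 8 h, -6.19, -6.77 and -6.15 at 24 h, -5.50 and -6.62 at 48 h, and -6.77, -4.98 and -3.89 at 96 h, of which only the last was well above background. With vit C they were -5.81, -5.15 and -7.16 at 8 h, none of them above background, then -4.47 and -4.08 at 24 h, -3.48 and -0.35 at 48 h and -3.61 and -3.68 at 96 h, all above background. With the UT arrays set at the lowest signal well above background on each, MFAP5 was at least 1.46-fold higher with vit C at 24 h and at least 6.43-fold higher at 48 h. With all signals floored at 20 units the differences were 0.18 and 2.52 log2 units, both below these bounds. The 24 h difference was 0.07 under normexp and -0.24 with slide as a term. At 96 h the means differed by 1.57 log2 units, or by -0.10 under normexp, and the nearest UT array, replicate 3, was only 0.21 below the lower vit C array. The 2 vit C arrays of 48 h differed by more than the groups of 96 h did (SD 2.22, n = 2), and the high one was the only array on its slide. With slide as a term the 48 h difference was 0.24 and rested on the lower vit C array alone. UT 96 h replicate 3 also had less GAPDH than the other 18 arrays (6.48 against 7.13 to 7.78), and without it MFAP5 differed by 2.23 at 96 h; the part of this array's RNA in the result was not tested.

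ADAMTS2 had 3 probes, of which 2 were made for NM_021599 and the third for AJ003125. The start of each is shown because the probes did not give the same picture.
ADAMTS2 probe 1: gggactgcactactccatgaacgagcaatg
ADAMTS2 probe 2: gaacattgtcaatgaaatctaccatgacga
ADAMTS2 probe 3: ctgtaggatggaagtcttgtcccgctattg
All 3 were well above background on every array. Probe 1, the brightest, gave 1.24 and 0.86 in UT cells at 48 h and 0.40, 0.78 and -1.08 at 96 h, where the low value was UT replicate 3. With vit C it gave 1.43 and 1.43 at 48 h and 0.96 and 1.07 at 96 h, 0.38 and 0.98 log2 units higher in the mean. Without UT replicate 3 the difference at 96 h was 0.43, and scaled over the probes above background on all arrays it was 1.07. With slide as a term the 48 h difference was 0.93. Probe 3 gave -1.63 and -1.70 in UT cells at 48 h and -1.83, -1.71 and -2.72 at 96 h, and with vit C -0.65 and -0.67 at 48 h and -0.70 and -0.66 at 96 h. On this probe the vit C arrays were higher without overlap at 24, 48 and 96 h, by 0.90, 1.01 and 1.41 log2 units. Probe 2 was higher by 0.77 at 48 h and overlapped at 96 h.

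Fibronectin rose with time in both arms. It had 3 probes as well, and the start of each is shown because they were made for different transcripts (NM_212482 for probes 1 and 2 and NM_054034 for probe 3).
FN1 probe 1: tacaaccagtattctcagagataccatcag
FN1 probe 2: cctgttggcactgatgaagaacccttacag
FN1 probe 3: aatactctttctgcacagaccacactgttt
Probe 1 gave -1.33 and -1.32 in UT cells at 8 h, 1.78, 2.01 and 1.57 at 24 h, 5.10 and 5.26 at 48 h, and 5.13, 4.28 and 5.70 at 96 h. With vit C it gave -1.08, -1.27 and -1.67 at 8 h, 1.59 and 2.13 at 24 h, 5.64 and 4.92 at 48 h, and 5.32 and 5.45 at 96 h. The arms overlapped at all 4 time points on this probe, with differences between the means of -0.01, 0.07, 0.10 and 0.35. The UT mean rose 90.8-fold from 8 to 48 h and the vit C mean 98.1-fold, and in both arms the 96 h arrays overlapped those of 48 h. Probe 2 followed the same course, from -3.82 (SD 0.20, n = 2) in UT cells at 8 h to 2.12 (SD 0.21, n = 2) at 48 h. Probe 3 was not above background on any of the 5 arrays of 8 h and reached 0.68 in UT and 0.41 in vit C cells at 48 h, at least 59.6-fold and at least 40.8-fold above 8 h. Without UT replicate 3 of 96 h the vit C arrays of that time lay above the UT arrays on probe 1 without overlap, by 0.68, and with slide as a term the 48 h difference was 0.59. The rise in UT cells from 8 to 48 h, and to the first 96 h array, was seen within 1 slide.

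**Figure D2:**
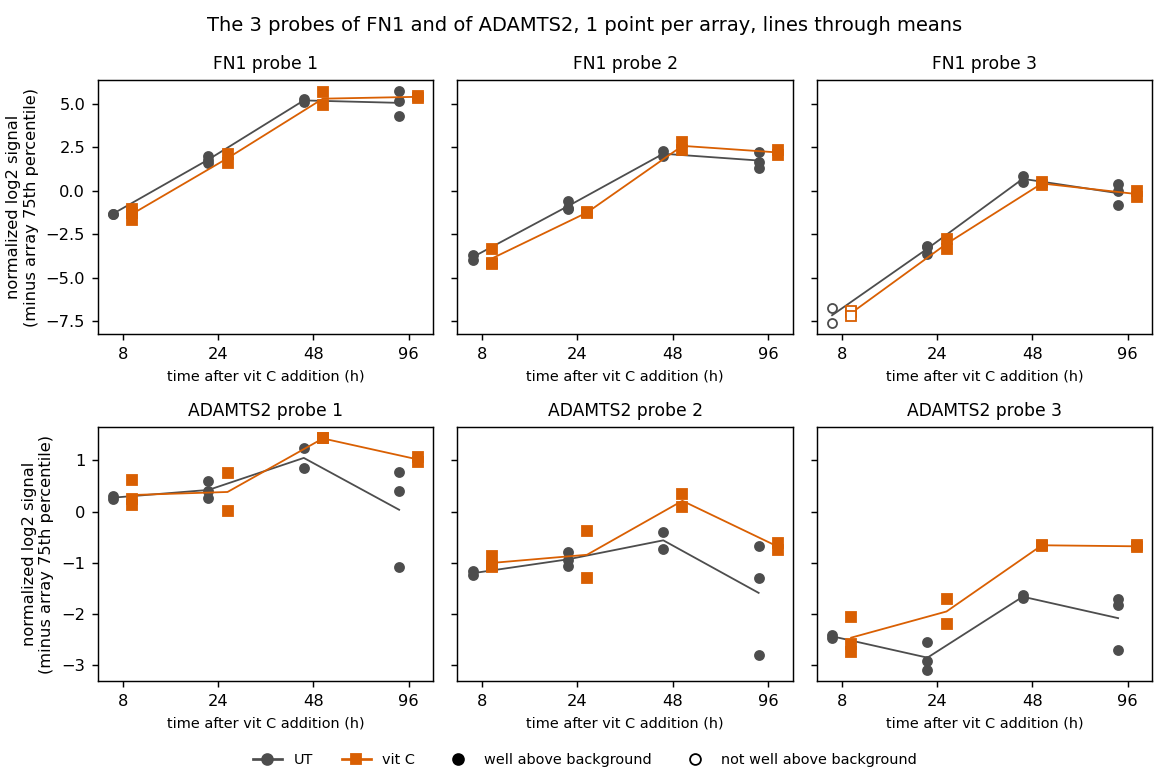
Normalized log2 signal (y axis) of the 3 probes of FN1 (top) and of ADAMTS2 (bottom) against time after vit C addition in h (x axis), 1 point per array, lines through group means, open symbols not well above background. All FN1 probes rise from 8 to 48 h in both arms, and only ADAMTS2 probe 3 has the vit C arrays above the UT arrays at 24, 48 and 96 h.

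SPARC rose with time in both arms and further with vit C. Its single probe gave -4.73 and -4.87 in UT cells at 8 h, -5.08, -4.69 and -4.27 at 24 h (only the second well above background), -2.70 and -2.99 at 48 h, and -1.95, -1.69 and -1.92 at 96 h. With vit C it gave -5.23, -6.64 and -5.47 at 8 h, none of them above background, then -3.82 and -3.37 at 24 h, -1.25 and -1.70 at 48 h, and 0.23 and 0.01 at 96 h. At 8 h the vit C arrays were thus the lower ones, with only 1 of the 5 arrays of both arms well above background, so that no fold is given. Normexp background correction gave a difference of 0.01 at 8 h and a floor of 20 units gave 0. The vit C arrays were the higher ones, without overlap, at 24 h (by 1.08 in the measured means, and by 0.79 with the floor and 0.04 under normexp), 48 h (1.37, 2.59-fold) and 96 h (1.98, 3.93-fold). The 48 h vit C arrays overlapped the UT arrays of 96 h. From 8 to 96 h the UT mean rose by 2.94 log2 units, or by 1.36 under normexp. On the slide that held both treatments SPARC was -1.25 in the vit C array of 48 h and -1.92 and -1.69 in the UT arrays of 96 h.

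In UT cells alone, 3 of the 7 genes (FN1, SPARC and DCN) were at least 1 log2 unit higher at 96 h than at 8 h without overlap, as were 9.74% of all genes with a brightest probe above background. Over the 19 arrays the brightest probes of DCN and SPARC had the closest courses among the 7 (Pearson r = 0.95), followed by DCN and FN1 (0.90) and SPARC and FN1 (0.88). LUM had r = 0.74 with DCN and 0.71 with SPARC. BGN had r between -0.21 and 0.03 with LUM, DCN, FN1, SPARC and MFAP5, and 0.57 with ADAMTS2. These are descriptions over arrays that share time points and slides.

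The promoters of FN1 and SPARC are shown, as both genes rose over time in both arms. They are the 250 bases before the annotated start from RefSeq (GRCh38.p14), read in the direction of the gene, with capitals marking matches to the searched motifs; ADAMTS2 and BGN were also searched, and LUM, DCN and MFAP5 had no entry.
FN1, chr2:215436069-215436318, minus strand: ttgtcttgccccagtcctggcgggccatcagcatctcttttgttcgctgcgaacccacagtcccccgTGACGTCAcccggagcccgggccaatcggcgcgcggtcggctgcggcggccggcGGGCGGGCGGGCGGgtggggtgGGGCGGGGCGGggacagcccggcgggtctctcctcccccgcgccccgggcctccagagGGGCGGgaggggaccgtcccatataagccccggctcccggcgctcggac
SPARC, chr5:151686916-151687165, minus strand: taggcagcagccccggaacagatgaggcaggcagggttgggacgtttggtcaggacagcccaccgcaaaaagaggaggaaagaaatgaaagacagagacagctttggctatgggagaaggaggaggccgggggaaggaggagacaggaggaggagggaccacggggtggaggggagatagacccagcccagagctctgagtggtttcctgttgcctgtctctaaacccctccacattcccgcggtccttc
Both strands were searched for 5 short motifs, and each share below is over 35116 promoter windows of this length. The TATA box was searched as TATAAA, which 3763 of the windows held. The GC box was searched as GGGCGG, found in 42.6% of them. The AP-1 site was searched as TGANTCA, found in 6.57%. The cAMP response element (CRE) was searched as TGACGTCA, found in 1.65%. The SMAD element was searched as CAGAC, found in 38.0%. FN1 had 6 GC boxes, some of them overlapping, and 1 CRE 183 bases before the start. SPARC had none of the 5 motifs in this window. ADAMTS2 had 4 GC boxes and BGN 5, and neither had any of the others. A match describes the letters and not a used site.

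The genes most like LUM, FN1 and SPARC were taken as the 5 with the highest Pearson r over the 19 arrays, among 23158 other genes whose brightest probe was above background throughout at least 1 group. For LUM they were FABP7, a fatty acid-binding protein (r = 0.98), IL28RA, a chain of the interferon lambda receptor (0.92), PRRX2, a homeobox factor of mesenchymal cells (0.90), the transcript AK057233 (0.88) and SAGE1 (0.86). FABP7 lay between -7.63 and -6.45 on the UT arrays and had means of -5.18 and -4.22 with vit C at 48 and 96 h. The 4 vit C arrays of 48 and 96 h carry the spread of LUM, so that the r for LUM rests on them. Spearman's rho over the 19 arrays ranged from 0.48 for AK057233 to 0.98 for FABP7. On all other arrays LUM was not well above background, so its ranks there are those of background signals after scaling to each array. A high rho can therefore reflect this scaling for genes that also lay near background, and likeness of expression was not tested. For FN1 they were BPI, which binds bacterial endotoxin (0.98), PCGF2, a Polycomb group protein (0.98), CSRP2 (0.98), the interleukin 13 receptor chain IL13RA1 (0.98) and the amino acid transporter subunit SLC7A7 (0.97). BPI rose from a mean of -6.08 in UT cells at 8 h to -0.92 at 48 h. For SPARC they were FGFBP2 (0.98), prolactin (PRL, 0.96), the adaptor SLA (0.96), the prostaglandin D synthase PTGDS (0.95) and the fatty acid desaturase FADS2 (0.95). FGFBP2 had means of -0.64 in UT and 2.10 in vit C cells at 96 h, and PRL of -1.66 and 2.07.

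The rest of the non-collagen matrix was taken as 7 lists of 116 genes in all, of which 115 were on the array. They hold other SLRPs, elastic fibre and microfibril genes, other ADAMTS proteases and procollagen processing genes, adhesive and matricellular glycoproteins, laminin chains, large and basement membrane proteoglycans with link proteins, and matrix cross-linking enzymes. A gene was called when a probe changed by at least 1 log2 unit with a limma q (Benjamini-Hochberg adjusted p) of at most 0.05 over all probes, was above background throughout at least 1 of the groups compared, and all probes of the gene went the same way. The lists were drawn up by family and hold their members however they moved.

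At 8 h, 0 of the 55 list genes that could be called were higher with vit C and 1 was lower, against 0.424% and 0.239% of all genes. At an unadjusted limma p of at most 0.05 and the same size of change, 1 was higher and 4 lower, and by the methods' t-test without adjustment 1 and 3. The one called was CYR61, a matricellular protein of the CCN family, with -4.95 (SD 0.27, n = 3) in vit C and -3.37 (SD 0.20, n = 2) in UT cells (log2 fold change -1.58, standard error 0.28, limma q = 0.0267); the call was lost without any 1 of the 5 arrays. The CYR61 values are those of 1 of its 3 probes, and its brightest probe differed by -0.88 at 8 h and -1.18 at 24 h. At 8 h the called probe differed by -0.41 under normexp (limma q = 0.639) and by -1.07 with a floor of 20 units (limma q = 0.0803), and was called under neither. At 24 h, 0 of 51 were higher and 3 lower, against 1.28% and 0.936% of all genes; at an unadjusted limma p 1 was higher and 9 lower, and by the methods' t-test 0 and 8. ADAMTS1, a protease that cleaves aggrecan and versican, was -1.70 and -1.70 with vit C and 0.31, 0.14 and -0.02 in UT cells (log2 fold change -1.84, q = 0.000464), and stayed called in all 5 fits with 1 array left out, but with slide as a fixed block this probe had a limma q of 0.0618, and the list count was 0 higher and 1 lower. CYR61 (-1.63, q = 0.00934) and the lysyl oxidase-like enzyme LOXL4 (-1.09, q = 0.0136) were the others. CYR61 was lost without vit C replicate 2, and LOXL4 without UT replicate 3 or either vit C array. Fitted on the 24 h arrays alone, limma called ADAMTS1 and neither CYR61 nor LOXL4.

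At 48 h, 6 of 55 list genes were higher and 5 lower with vit C, against 2.89% and 2.1% of all genes. The largest rises were those of SPOCK2, a proteoglycan of the SPARC family (3.13, q = 0.0228), MFAP4, a microfibril-associated glycoprotein (2.73, q = 0.0359), ECM2, a leucine-rich repeat protein of the matrix (2.34, q = 0.0184), and LOXL2, a collagen cross-linking enzyme (1.40, q = 0.0248). The SPOCK2 value is that of 1 of its probes, and its brightest probe differed by 0.81. The UT arrays of the first 3 were not above background, which leaves at least 3.5-fold for SPOCK2, at least 2.42-fold for MFAP4 and at least 1.94-fold for ECM2. With a floor of 20 units they differed by 1.65, 1.11 and 0.80 log2 units, all below these bounds, and under normexp by 0.69, 0.35 and 0.38. The largest falls were those of LOXL4 (-2.62, standard error 0.21, q = 3.45e-05), ADAMTS1 (-2.23, standard error 0.34, q = 0.00345), the CCN family protein NOV (-1.95, q = 0.00866) and SPARCL1, a relative of SPARC (-1.76, q = 0.0190). LOXL4 was -2.59 and -3.13 with vit C and -0.18 and -0.31 in UT cells. SPARC was thus higher and SPARCL1 lower with vit C in the same arrays, and LOXL2 and LOXL4 went opposite ways. Under normexp LOXL2 differed by 0.50 (limma q = 0.29). Fitted on the 48 h arrays alone, LOXL2 had a limma q of 0.068 and SPARCL1 of 0.067, so neither was called. The count of 11 depended on each array: without UT replicate 1 or 2 it was 3 and 2, and without vit C replicate 1 or 2 it was 3 and 2. LOXL4 and ADAMTS1 were called in all 4 of these fits. Under normexp background correction 0 were higher and 5 lower. With slide as a fixed block 0 list genes were higher and 2 lower (LOXL4 and ADAMTS1), with SPOCK2 at 0.66 (limma q = 0.925). Fitted on the 48 h arrays alone, limma called 0.

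At 96 h, 5 of 62 list genes were higher and 5 lower, against 3.66% and 2.35% of all genes. The largest rises were those of VCAN, the large proteoglycan versican (1.98, standard error 0.27, q = 0.000713), the laminin chain LAMB1 (1.94, standard error 0.26, q = 0.000634), the CCN family protein WISP1 (1.89, q = 0.0140) and the laminin chain LAMB2 (1.67, q = 0.0174). VCAN was 1.52 and 1.23 with vit C and -0.28, -1.27 and -0.26 in UT cells, and LAMB1 was -1.04 and -1.22 against -3.27, -3.36 and -2.58. The largest falls were those of the proteoglycan brevican (BCAN, -1.44, q = 0.000655), the laminin chain LAMA3 (-1.35, q = 0.0237), SPARCL1 (-1.26, q = 0.0349) and NOV (-1.15, q = 0.0373). As the mean of its probes BCAN differed by -0.74 (limma q = 0.06), and without vit C replicate 1 LAMA3 differed by -0.89. Without UT replicate 3 SPARCL1 and NOV differed by -0.95 and -0.85. VCAN and LAMB1 were called in all 5 fits with an array left out. The count of 10 fell to 2 without vit C replicate 1 and to 5 without vit C replicate 2. Under quantile normalization 5 list genes were higher and 1 lower at 96 h. Fitted on the 96 h arrays alone, limma called 0, with VCAN at q = 0.180 and LAMB1 at q = 0.159. Most of the 14 other SLRPs were not measured, as only 3, 2, 3 and 4 could be called at 8, 24, 48 and 96 h. Of these limma called 0 at 8 h (1 higher at an unadjusted p and this size of change), 0 at 24 h (0 at an unadjusted p), ECM2 alone at 48 h (2 higher at an unadjusted p) and 0 at 96 h (0 at an unadjusted p). The calls of every time point carry the limit of slide given for LUM, and those of 96 h also that of scan day.

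**Figure D3:**
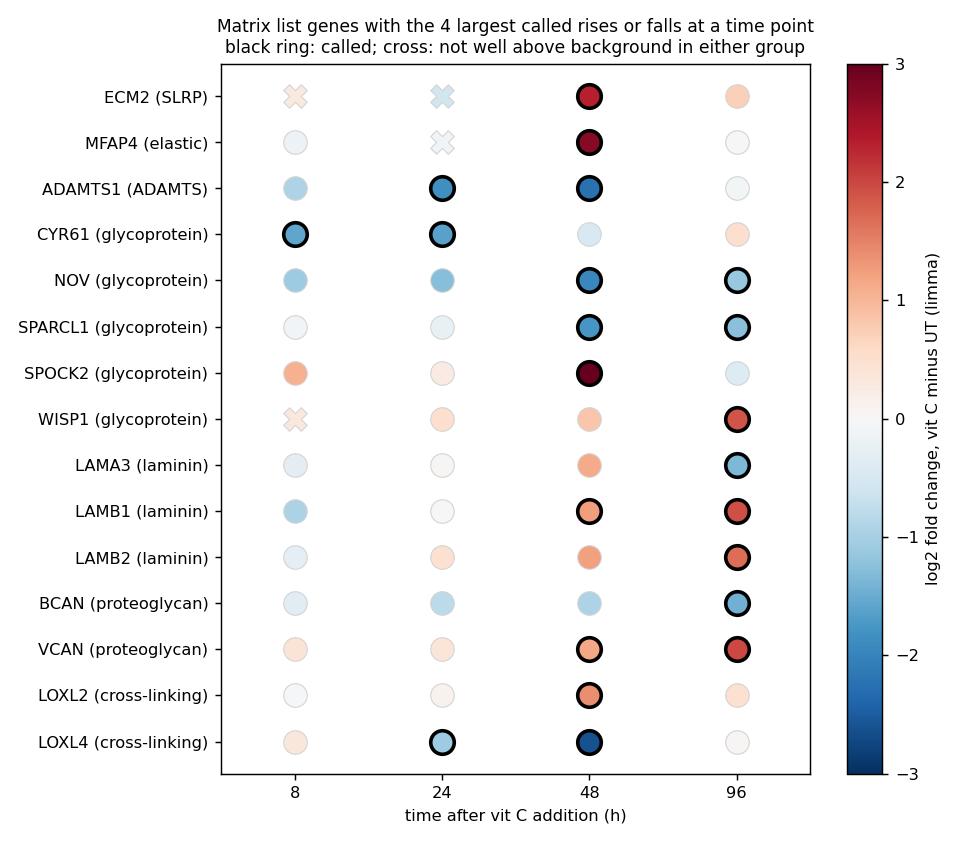
Log2 fold change, vit C minus UT, from limma (colour, red higher with vit C) of the matrix list genes with the 4 largest called rises or falls at any time point (rows, with their list) at the 4 time points in h (x axis). A black ring marks a call and a cross a gene not above background in either group. The rises lie at 48 and 96 h and the falls at all 4 time points, with ADAMTS1 and LOXL4 lower at 24 and 48 h and near 0 at 96 h.

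The effect of vit C differed between the 4 time points, by a limma F test with q over all probes, for 3 of 82 list genes (LOXL4, LAMB1 and ADAMTS1) and for 297 of 23159 genes in all. LOXL4 had effects of 0.34, -1.09, -2.62 and 0.04 at 8, 24, 48 and 96 h (q = 0.000886). LAMB1 had -0.95, 0.00 and 1.26 and then 1.94 (q = 0.00586).

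In UT cells from 8 to 96 h, 11 of 57 list genes were higher and 13 lower, against 11.5% and 9.61% of all genes. The largest rises were those of WISP1 (at least 7.39-fold), ECM2 (at least 3.34-fold), the latent TGF-beta binding protein LTBP1 (at least 11.2-fold), all not above background at 8 h, and CYR61 (2.62, q = 1.16e-05). The largest falls were those of ADAMTS1 (-4.42, q = 2.38e-07), ADAMTS8 (-3.56, q = 0.000623), transglutaminase TGM2 (-2.93, q = 0.00270) and thrombospondin THBS2 (-2.68, q = 9.99e-05). The brightest probes of TGM2 and THBS2 differed by -1.85 and -1.54. ADAMTS1 differed by -2.60 under normexp and by -5.11 with slide as a fixed block. Without UT 96 h replicate 3 ADAMTS8 fell by 2.66 and TGM2 by 2.22. Fitted on these arrays alone neither was called, and with slide as a fixed block TGM2 was not called. WISP1 was not called without UT 8 h replicate 1 or under quantile normalization. With a floor of 20 units WISP1 differed by 2.11 log2 units, ECM2 by 0.96 and LTBP1 by 2.71, all below the bounds given for them. The WISP1 and ECM2 values are those of single probes, and as the mean of their probes these genes differed by 2.42 and 2.06 log2 units. ECM2 and THBS2 were not called under normexp or with the floor. VCAN rose (1.95, q = 0.000106), as DCN, SPARC and FN1 had, and LAMB1 fell (-1.07, q = 0.00792). Of the ADAMTS and procollagen processing genes 0 rose, by limma as at an unadjusted p, and 3 fell (ADAMTS1, ADAMTS8 and ADAMTS14; 4 at an unadjusted p), with a median of -1.05 over the 13 that were measured, against -0.07 over all genes.

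The markers of the labelled cell type were present. Of 10 macrophage genes, 9 passed background on all 19 arrays and LYZ on 18. Of 12 fibroblast genes, 6 were so on all 19 arrays (PDGFRA, PDGFRB, THY1, COL6A3, FAP and TWIST1), while COL1A2 and TCF21 were so on 0, and COL3A1 on 2. The summed fibroblast level, as log2 of the sum, was 4.44 to 4.49 in vit C and 4.61 to 4.68 in UT cells at 48 h and 2.94 to 3.01 against 3.58 to 3.86 at 96 h. The sum is of linear signals, so FAP, the brightest of the list at these time points, weighs most in it. FAP had means of 3.21 in vit C and 3.89 in UT cells at 48 h and 1.62 and 2.78 at 96 h. PDGFRA (1.86 and 2.05) and TWIST1 (1.25 and 1.54) were also lower with vit C at 48 h. Several genes of the list went the other way at 48 h. COL1A1 was above background on 5 arrays, all with vit C (1 of 24 h and both of 48 and of 96 h), with means of -2.87 in vit C and -4.65 in UT cells at 48 h. PDGFRB had means of 0.50 and -0.50 at 48 h and -1.75 and -3.05 at 96 h, and THY1 of 2.20 and 0.96 at 48 h and 0.39 and 1.08 at 96 h. COL6A3 had -1.90 and -2.29 at 48 h and -2.80 and -2.48 at 96 h. The part of these markers in the result was not tested. The summed level of 6 smooth muscle genes was -0.11 to -0.05 with vit C and -1.01 to -0.60 in UT cells at 48 h, and -0.76 to -0.54 against -1.70 to -0.62 at 96 h, where the arms overlapped. Its part in the result was not tested. CNN1 and MYOCD of that list were above background on 0 arrays, DES on 1, ACTA2 on 14, MYH11 on 17 and TAGLN on 19. MYH11 had means of -0.94 in vit C and -2.48 in UT cells at 48 h, and of -2.04 and -4.07 at 96 h. ACTA2 had -2.52 and -2.95 at 48 h and -2.99 and -2.16 at 96 h. TAGLN had -2.26 and -2.21 at 48 h and -2.04 and -2.54 at 96 h. Of 4 endothelial genes VWF was above background on all arrays, KDR and TEK on both vit C arrays of 96 h and on 0 of the other 17, with means of -5.02 and -5.08 there, and CDH5 on 0. The 96 h vit C arrays were the brightest, with 75th percentiles of 787.6 and 903.5 units against at most 625.6 on the others. On them 69.8% and 72.8% of probes were well above background, against 57.5% to 68.7% on the others. KDR had a mean of -5.34 in UT cells at 8 h, where it was not above background. The part of array brightness in these detections, and of the endothelial genes in the LUM result of 96 h, was not tested.

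The differences of the 7 genes held to different degrees under other processing. Under normexp background correction, which adds an offset to every signal, MFAP5 differed by 1.41 at 48 h, SPARC by 0.78 and 1.5, and DCN by 1.97 and 2.32. Under quantile normalization LUM differed by 3.56 and 4.56. With slide as a term, which could be fitted at 48 but not at 96 h, LUM differed by 3.93, DCN by 1.87 and SPARC by 1.45 at 48 h. All slide-term values of vit C against UT at 48 h rest on 1 vit C array, as the other was alone on its slide. They take the difference between slides from the UT arrays of 96 h, among them replicate 3 with its low GAPDH.

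**Figure D4:**
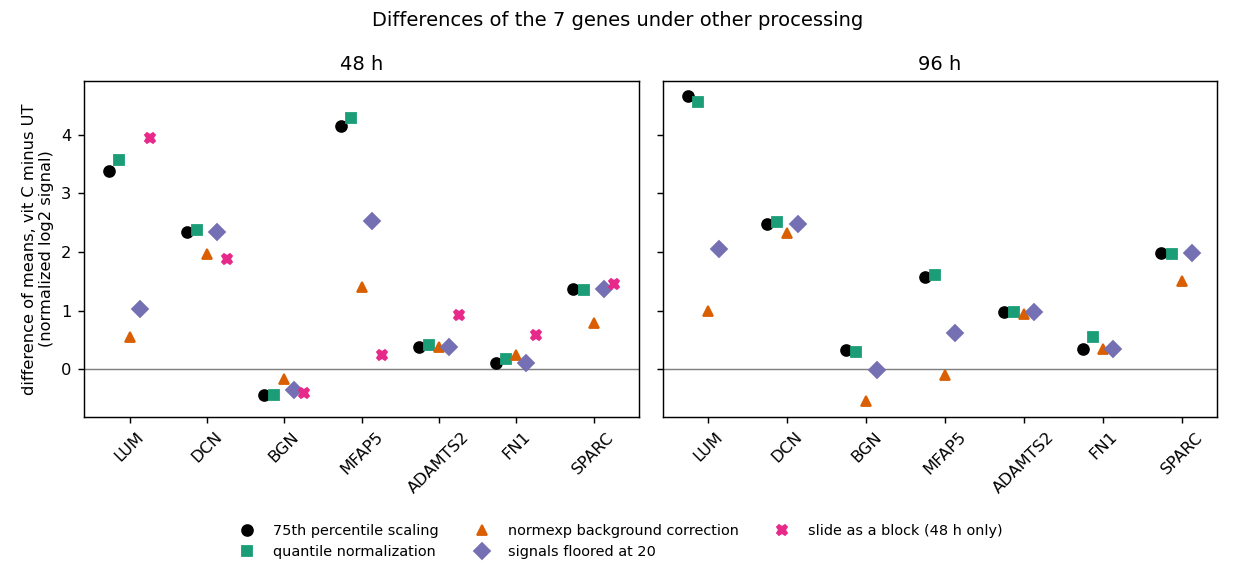
Difference between the group means, vit C minus UT, in normalized log2 signal (y axis) for the 7 genes (x axis) at 48 h (left) and 96 h (right), with 1 symbol for each of the ways of processing in the legend. DCN lies between 1.87 and 2.51 under all of those shown, while LUM lies between 0.55 and 4.65.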

How the data were processed

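RNA of 19 flasks was measured on Agilent one-colour arrays, in 2 or 3 arrays per group, after samples of lower RNA integrity had been set aside by the authors. The intensity values (processed, mean and background signal) were extracted by the authors with Agilent Feature Extraction, with gene names of the array design on hg18. The file headers give 10.5.1.1 as the version of the grid placement, and the study's methods name another version of the software. The log2 values that the authors deposited in the series matrix were shifted to the 75th percentile and served as an alternative. The flags for background, outliers and saturation are as deposited. Precision is limited by the number of arrays, and no spot was saturated.

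Spots of a probe were averaged, log2 was taken of the processed signal, and the 75th percentile of each array over non-control probes (290.2 to 903.5 units) was subtracted. Group means were fitted over all 19 arrays with limma 3.58.1 in R 4.3.3, without covariates, and p-values were adjusted by Benjamini-Hochberg over all probes after genes with opposing probes had been removed, as in the study's methods. The brightest probe is the one with the highest mean over arrays. Named list genes are the 4 largest rises and falls among those called per comparison, and most other called genes are only counted. The fit was tested on simulated data. Also run were separate fits for each time point, the t-test of the methods, other normalization, background and dim-probe rules, blocks for slide and replicate number, and fits without each array. The 7 genes and all lists were chosen with earlier results of these data known. At 48 h the titles and descriptions of the samples number the replicates differently, and the numbers of the titles are used. Replicate numbers were shared by the arms, but same-numbered arrays did not deviate together. Arrays are from separate flasks of 1 line, so that p-values measure the spread between flasks. The arms of a time point were on different slides, so the differences tested also hold any difference between slides.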

Additional observations from a re-analysis of the deposited data

Results flagged for a closer look

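LOXL4, LAMB1 and ADAMTS1 had effects of vit C that differed between the 4 time points by the limma F test, with q = 0.000886, 0.00586 and 0.0139. ADAMTS1 had effects of -0.93, -1.84, -2.0 and -0.08 log2 units at 8, 24, 48 and 96 h on its brightest probe.

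SPARC was lower in every vit C array than in every UT array at 8 h (-0.98 between the measured means) and higher in every one at 96 h (1.98). The difference at 8 h was 0.01 under normexp background correction and 0 with a floor of 20 units. The difference between these time points was not tested, since SPARC was chosen on its levels, and the 3 vit C arrays of 8 h were not above background. FN1 probe 2 was likewise lower without overlap at 24 h (-0.37) and higher at 48 h (0.45), also not tested, while the brightest FN1 probe overlapped at both.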

How the results depend on the processing

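Counts of list genes called were 1, 3, 11 and 10 with vit C at 8, 24, 48 and 96 h and 24 in UT cells between 8 and 96 h. The methods' t-test without adjustment gave 4 at 8 h and 8 at 24 h, and after Benjamini-Hochberg adjustment 0 at all 4 time points and 1 in UT cells. Separate fits per time point gave 2, 1, 0 and 0, and 13 in UT cells. At 96 h quantile normalization gave 6, a floor of 20 units 5 and no requirement on background 23. Normexp gave 5 at 48 h, 6 at 96 h and 12 in UT cells, and moved the median of all genes at 96 h from -0.05 to -0.22. Leaving dim probes out before the fit gave 2 at 8 h. Slide as a fixed block gave 0, 1 and 2 at 8, 24 and 48 h and could not be fitted at 96 h. The F test called 6 list genes under normexp and 8 with the floor, against 3.

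Same-numbered arrays of the arms had deviations that correlated between -0.34 and 0.13, so the numbers were not taken to pair the samples. With the replicate block the counts were 0, 3, 9, 7 and 24, and the F test gave 3. At 48 h, where the correlation was -0.13, the crossed pairing, which was added after seeing the data, gave 9, as did the block as numbered.

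Of the 7 genes, normexp left 0, 2 and 2 higher without overlap at 24, 48 and 96 h, and the floor 0 at 24 h. MFAP5 turned to -0.10 at 96 h under normexp and to -0.24 at 24 h with slide as a fixed block. The cause was not tested.

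With 1 array left out, the list counts ranged from 0 to 1 at 8 h, 1 to 3 at 24 h (1 without vit C replicate 2), 2 to 3 at 48 h, 2 to 11 at 96 h and 18 to 29 in UT cells. Those of the 7 genes ranged from 0 to 1, 1 to 2 (1 without UT replicate 1 or vit C replicate 2), 4 to 4 and 4 to 5, and from 3 to 4 in UT cells. A fit that left 1 array in a group assumed that it varied like the others. Signals near background (LUM in UT cells, MFAP5, BGN) limit how far any of these differences can be measured.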
